A study of Mus musculus with 22 samples.

Results

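Mouse defensin genes lie in dense tandem clusters, and the levels of 5-methylcytosine (5mC) and 5-hydroxymethylcytosine (5hmC) across these clusters were compared between 3 brain tissues. All protein-coding autosomal genes of GENCODE release M21 whose symbol starts with Defa (alpha-defensins) or Defb (beta-defensins) were taken, which gave 64 genes of 20807, 22 Defa and 42 Defb. The other 18 autosomal entries with such symbols are pseudogenes and were left out. For 5mC, the 22 bins of 100 kb that overlap at least 1 of these genes were used, of 26327 bins in all. For 5hmC, the 4 bins of 1 Mb that hold 3 or more of the genes were used, of 2641.

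The samples were whole cerebral cortex without hippocampus, olfactory bulb and cerebellum of female wild-type C57BL/6 mice aged 8 weeks, with no treatment in any group. OxBS-seq, which reads 5mC alone, had 3 cortex, 2 olfactory bulb and 2 cerebellum libraries, and TAB-seq, which reads 5hmC alone, had 3 libraries of each tissue. The labels call the replicates technical but say that each tissue came from an independent mouse. Each tissue is a mixture of cell types, so a change in level and a change in the mix of cells cannot be told apart. Expression was not analysed here, so neither the identity of the tissues nor the silence of the defensin genes in them was checked. The values are fractions from 0 to 1 per bin with no read counts, so the depth behind a bin is unknown and the SD between libraries is the error throughout. Between replicates of a tissue, Pearson's r across bins was 0.947 to 0.982 for 5mC and 0.994 to 0.998 for 5hmC. The third cortex oxBS-seq library had the lowest mean 5mC over all bins (0.660, against 0.684 and 0.687 in the other cortex libraries), and it is also low at most defensin bins.

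Defensins are small cationic peptides that disrupt microbial membranes. Alpha-defensins of the mouse, also called cryptdins, are made by Paneth cells of the small intestine and are cut to their active form by the protease matrilysin (Mmp7), while beta-defensins are made by epithelia, many of them in the epididymis. In tissues that do not use a locus, its CpG sites are usually methylated. 5hmC is made from 5mC by TET enzymes and in neurons is found mostly within the bodies of active genes.

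The genes form 5 clusters, split where neighbouring genes are more than 1 Mb apart. On chromosome 1, Defb18 and Defb41, which are expressed in the epididymis, lie in 1 bin (mm10 chr1:18236473-18265138). On chromosome 2, 11 Defb genes from Defb23 to Defb25 lie in 3 bins (chr2:152459055-152623053). Chromosome 8 holds a proximal cluster of 14 Defb genes from Defb40 to Defb7 in 5 bins (chr8:18974940-19497775) and a distal cluster of 22 Defa and 10 Defb genes from Defb33 to Defb13 in 11 bins (chr8:20892669-21948850). On chromosome 14, 5 Defb genes from Defb48 to Defb42 lie in 2 bins (chr14:62977524-63058149), where Defb30 and Defb42 overlap.

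Most defensin promoters offer few CpG sites that could carry either mark, as the RefSeq windows from 250 bases before to 50 bases after the start (GRCm38.p6) show. Of the 41 members with a window, 26 held at most 1 CG, 11 of 12 Defa and 15 of 29 Defb windows, against 14.3% of 25748 autosomal windows. The median was 1 CG in the members and 7 in all windows. The lines below print the first and the last Defa gene with a window, which differ in where their only CG lies, the chromosome 1 gene, whose window holds none, and the first gene of the chromosome 2 cluster. CG, which reads the same on both strands, is in capitals. Defa21 lies at chr8:21025295-21025594 on the plus strand, Defa28 at chr8:21582777-21583076 on the plus strand, Defb41 at chr1:18265089-18265388 on the minus strand and Defb23 at chr2:152464571-152464870 on the minus strand. Likeness was taken from the edit distance of a global alignment, in which substituted, inserted and missing bases all count against it. Defa21 and Defa28 were 58.3% alike, while the 66 pairs of Defa windows had a median of 80.7% and the 406 pairs of Defb windows one of 46.7%. The stretch that ends the Defa21 window lies further inside that of Defa28, so these windows are offset, which also lowers their likeness.
Defa21: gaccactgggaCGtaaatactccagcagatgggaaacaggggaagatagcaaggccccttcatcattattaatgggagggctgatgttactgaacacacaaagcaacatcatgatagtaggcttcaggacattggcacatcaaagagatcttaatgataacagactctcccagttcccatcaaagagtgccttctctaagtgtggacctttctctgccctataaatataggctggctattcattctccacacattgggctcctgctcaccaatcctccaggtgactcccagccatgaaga
Defa28: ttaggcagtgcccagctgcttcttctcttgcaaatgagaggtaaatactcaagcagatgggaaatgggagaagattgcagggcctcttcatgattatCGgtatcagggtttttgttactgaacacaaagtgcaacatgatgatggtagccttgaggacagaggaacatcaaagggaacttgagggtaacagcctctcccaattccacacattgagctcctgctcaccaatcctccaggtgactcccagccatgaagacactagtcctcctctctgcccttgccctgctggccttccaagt
Defb41: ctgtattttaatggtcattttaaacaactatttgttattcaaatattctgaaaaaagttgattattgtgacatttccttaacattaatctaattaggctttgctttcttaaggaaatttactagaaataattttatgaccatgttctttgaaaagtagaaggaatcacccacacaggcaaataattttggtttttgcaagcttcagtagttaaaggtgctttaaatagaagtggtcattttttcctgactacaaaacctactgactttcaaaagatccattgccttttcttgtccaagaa
Defb23: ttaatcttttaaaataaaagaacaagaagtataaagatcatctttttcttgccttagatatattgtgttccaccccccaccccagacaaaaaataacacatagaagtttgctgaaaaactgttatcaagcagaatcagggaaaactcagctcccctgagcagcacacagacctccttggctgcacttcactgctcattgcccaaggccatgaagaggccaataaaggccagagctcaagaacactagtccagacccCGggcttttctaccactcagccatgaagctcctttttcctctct

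All 5 clusters were mostly methylated in all 3 tissues, and both clusters of chromosome 8 stood above the level of the genome in cortex, while in cerebellum the distal one stood below it. Averaged over every 100 kb bin kept, cortex had a 5mC level of 0.677 ± 0.015 (SD, n = 3), olfactory bulb 0.707 ± 0.003 (n = 2) and cerebellum 0.731 ± 0.011 (n = 2). The mean over the 11 bins of the distal chromosome 8 cluster was 0.746, 0.744 and 0.718 in the cortex libraries, 0.758 and 0.757 in olfactory bulb, and 0.714 and 0.698 in cerebellum. The 2 cerebellum libraries were thus the lowest of the 7, although over all bins they were the highest. The proximal cluster was at 0.738, 0.730 and 0.724 in cortex, 0.763 and 0.758 in olfactory bulb, and 0.747 and 0.725 in cerebellum. Its olfactory bulb values lay above all others, and cortex and cerebellum overlapped.

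On the other chromosomes cerebellum had the highest mean, as over all bins. The chromosome 1 bin with Defb18 and Defb41 was at 0.743, 0.744 and 0.714 in cortex, 0.771 and 0.783 in olfactory bulb, and 0.826 and 0.817 in cerebellum, with no overlap between any tissues. The chromosome 14 cluster was at 0.688, 0.698 and 0.665 in cortex, 0.730 and 0.735 in olfactory bulb, and 0.750 and 0.727 in cerebellum, where only cortex stood apart. The chromosome 2 cluster was the least methylated, at 0.632, 0.638 and 0.603 in cortex, 0.629 and 0.641 in olfactory bulb, and 0.674 and 0.655 in cerebellum. No difference between tissues in a cluster mean can pass 0.05 here, since the two-sided exact permutation test goes no lower than 0.1 for 3 libraries against 2 or 3 and 0.33 for 2 against 2, and over all 27 such tests the adjusted p was at least 0.159.

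Single bins spread more widely than cluster means. Averaged over the tissue means, the highest member bin was that of Defb50, Defb2, Defb10 and Defb9 in the distal cluster (0.791) and the lowest was that of Defb36 and Defb25 on chromosome 2 (0.599). In cortex, 96.7% of autosomal bins lay below the first and 11.1% below the second, whereas in cerebellum 59.4% and 13.0% did. Within the distal cluster the lowest bin held Defa27, Defa29, Defa2 and Defa33 (0.703). In the proximal cluster the bin of Defb38 and Defb39 was highest (0.767) and that of Defb40 and Defb37 lowest (0.711). On chromosome 2 the bin of Defb26, Defb28, Defb29, Defb21, Defb19 and Defb45 was highest (0.724), and on chromosome 14 the 2 bins were close (0.713 for Defb48 and Defb47, 0.723 for Defb47, Defb43, Defb30 and Defb42).

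**Figure D1:**
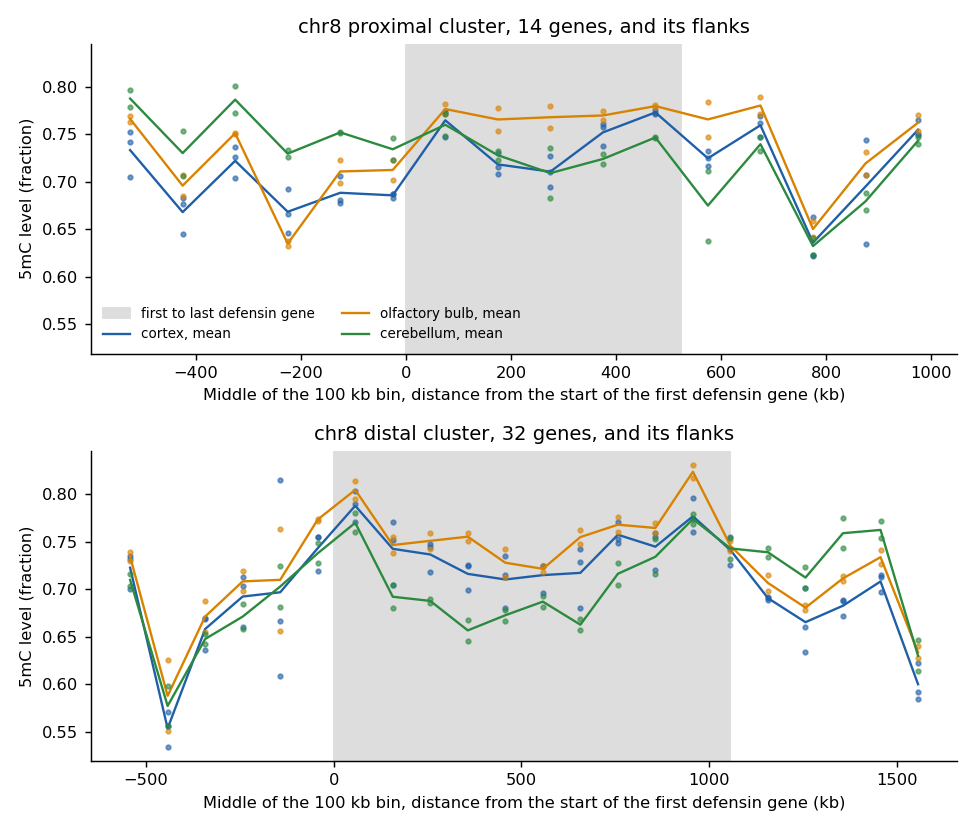
5mC level (fraction) of 100 kb bins along the proximal and distal chromosome 8 defensin clusters and their flanks, against the distance of the bin's middle from the start of the first defensin gene (kb). Points are single oxBS-seq libraries, lines are tissue means and grey spans reach from the first to the last defensin gene. In the 7 bins with Defa genes only, inside the distal cluster, the cerebellum line runs below those of cortex and olfactory bulb.

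The bins of the Defa genes differed in make-up from those of the Defb genes. The 7 bins with Defa genes only were poor in CpG sites (median 5.37 per kb, against 8.10 in the 14 bins with Defb genes only and 7.79 over 24011 autosomal bins) and had little of their length in annotated genes (3.69%, against 23.5% and 33.3%). They were also rich in sequence that recurs on the same chromosome. Of 96-base stretches sampled from these bins, a median of 62.6% (42.3% to 79.3%) were found again elsewhere on chromosome 8, against 1.74% in the Defb bins (at most 41.7%, in the bin of Defb33). Reads were kept only if they mapped to a unique place, so fewer reads can stand behind the Defa bins, and copies that differ between the assembly and the mice were not examined.

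Between olfactory bulb and cortex, defensin bins rose about as often as other bins. In the limma fit over 25664 bins, 8 of 22 member bins were higher in olfactory bulb and 0 were lower at an adjusted p under 0.05, against 37.6% and 2.18% of all bins. The median change was 0.14 on the scale of log2(level/(1 − level)), against 0.22 over all bins. In 12 member bins both olfactory bulb libraries lay above all cortex libraries, as they did in 62.3% of autosomal bins. The largest rise was in the bin of Defb4, Defb6, Defb46, Defb5 and Defb3, a group that includes Defb4 and Defb3, which epithelia induce upon infection. Its values were 0.727, 0.710 and 0.695 in cortex against 0.756 and 0.779 in olfactory bulb, with no overlap, and the change was 0.43 ± 0.12 (SE, adjusted p = 0.0020). limma took its spread almost wholly from all bins together, so the SE is close to 0.12 everywhere and says little of a bin's own error. The bin of Defb50, Defb2, Defb10 and Defb9 rose by 0.42 (adjusted p = 0.0025) and that of Defb12, Defb34, Defb14 and Defb4 by 0.36 (adjusted p = 0.010). The count of 8 rests on few libraries, as it was 5 without cortex replicate 1, 4 without cortex replicate 3, 2 without olfactory bulb replicate 1 and 1 without olfactory bulb replicate 2. With each library centred on its median over all bins, 0 were higher and 1 lower (background 8.81% and 9.9%).

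Between cerebellum and cortex the Defa bins fell while most of the genome rose. Of the 22 member bins 6 were higher and 6 lower in cerebellum, against 71.9% and 4.44% of all bins, and the median change was −0.03 against 0.43 over all bins. All 6 lower bins held Defa genes only, that is 6 of the 7 such bins, and the 6 higher ones held Defb genes only, 6 of 14. The bin of Defa3 and Defa5, which encode cryptdins of the Paneth cell, was at 0.724, 0.725 and 0.699 in cortex, 0.751 and 0.759 in olfactory bulb, and 0.668 and 0.645 in cerebellum. Cerebellum lay below every other library there, the change against cortex was −0.40 ± 0.12 (SE, adjusted p = 0.0012), and 1.77% of all bins in the fit changed to a lower value. The bin of Defa20, Defa32, Defa37 and Defa28 was at 0.729, 0.742 and 0.680 in cortex and 0.668 and 0.657 in cerebellum, a change of −0.37 (adjusted p = 0.0026). The bin of Defa21, Defa23, Defa35 and Defa25 fell by 0.37 (adjusted p = 0.0032) and that of Defa30, Defa22 and Defa31 by 0.35 (adjusted p = 0.0052). The seventh, that of Defa36, changed by −0.19 and did not pass the test (adjusted p = 0.12), but in all 7 every cerebellum library lay below every cortex library, as it did in 4.65% of autosomal bins. In all 7 both cerebellum libraries also lay below both olfactory bulb libraries, as in 13.0% of autosomal bins.

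Of the Defb bins, the chromosome 1 bin of Defb18 and Defb41 rose most from cortex to cerebellum (0.74 ± 0.12 (SE), adjusted p = 3.4e-09), and 87.2% of all bins in the fit changed to a lower value. The bins of Defb48 and Defb47 (0.43) and of Defb36 and Defb25 (0.39) followed, both within the range of the genome. On chromosome 8 the 7 Defb bins other than that of Defb40 and Defb37 (0.34, adjusted p = 0.0058) did not pass the test, with changes between −0.21 (Defb8 and Defb7) and 0.07 (Defb12, Defb34, Defb14 and Defb4). The bin that Defa24 shares with Defb1, a beta-defensin made constitutively by epithelia, changed by −0.08. Without cerebellum replicate 2 the count of lower bins was 3, and without cerebellum replicate 1 that of higher bins was 2. After centring, 1 bin was higher and 16 were lower (background 25.7% and 24.3%), since the median of all bins had shifted by 0.43.

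Cerebellum also stood below olfactory bulb in the mean of both chromosome 8 clusters, while in that of the other clusters it stood above. Of the member bins 2 were higher and 8 lower in cerebellum, against 35.3% and 7.69% of all bins, with a median change of −0.25 against 0.19 over all bins. The 3 largest changes were in Defa bins. The bin of Defa3 and Defa5 changed by −0.69 ± 0.13 (SE, adjusted p = 1.4e-06), that of Defa20, Defa32, Defa37 and Defa28 by −0.65 (adjusted p = 6.7e-06) and that of Defa30, Defa22 and Defa31 by −0.45 (adjusted p = 0.0020). The other lower bins were 3 more of Defa genes and those of Defb50, Defb2, Defb10 and Defb9 (−0.45) and of Defb4, Defb6, Defb46, Defb5 and Defb3 (−0.44). The comparisons share their libraries, so they are not independent of each other. The lower count was 4 without olfactory bulb replicate 1 and 4 without cerebellum replicate 2, and the higher count, which consists of the bins of Defb18 and Defb41 (0.40) and of Defb23, Defb20 and Defb22 (0.32), was 0 without olfactory bulb replicate 1 or cerebellum replicate 1 and 1 without cortex replicate 1, olfactory bulb replicate 2 or cerebellum replicate 2. After centring, 1 was higher and 15 lower (background 22.1% and 21.3%).

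The fall in cerebellum went with the share of recurring sequence. Of the 8 member bins with 40% or more recurring stretches, 6 were lower in cerebellum than in cortex, with a median change of −0.33, and of the 14 bins under 40%, 0 were lower and 6 higher, with a median of 0.07. Across the 11 bins of the distal cluster Pearson's r between the recurring share and the change was −0.80, and across all 22 member bins −0.76. These points share their libraries and their neighbourhood, and Defa genes and recurring sequence occur in the same bins, so the 2 cannot be told apart within the members. Outside the members, 138 bins of the same chromosomes had 40% or more recurring stretches, and 7.25% of them were lower in cerebellum, with a median change of 0.13, against 2.26% and 0.48 in 6023 bins under 40%. On chromosome 8 there were 14 such bins without defensin genes, of which 0 were lower, with a median of −0.02 and a lowest change of −0.21. The part of uniquely mapped reads in the Defa values was not tested.

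**Figure D2:**
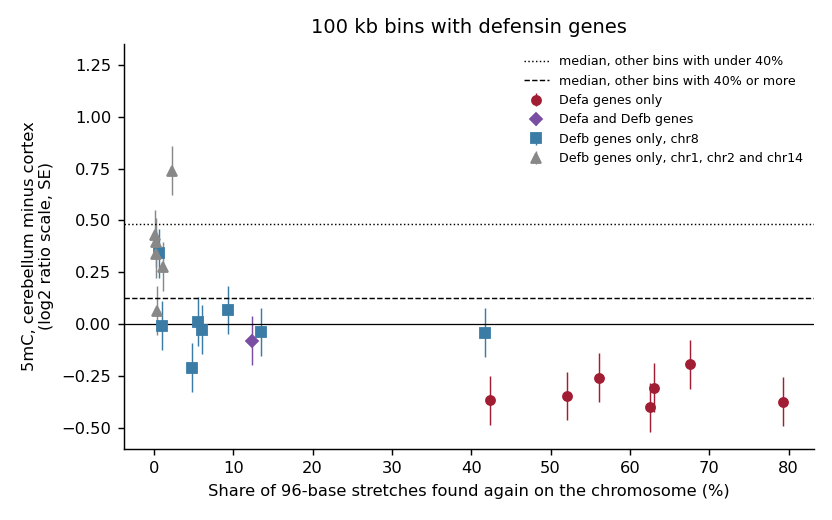
Change in 5mC from cortex to cerebellum (log2 ratio scale, bars are SE) of the 22 bins of 100 kb with defensin genes, against the share of 96-base stretches found again on the same chromosome (%). Symbols mark the kind of defensin gene and the dashed and dotted lines give the median change of bins without defensin genes on the same chromosomes. The 7 bins with Defa genes only lie at 42.3% or more and at −0.19 or below.

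Averaged per library, the Defa bins and the Defb bins changed places between tissues. The 7 bins with Defa genes only were at 0.737, 0.735 and 0.711 in cortex, 0.750 and 0.743 in olfactory bulb, and 0.688 and 0.676 in cerebellum. The 14 bins with Defb genes only were at 0.714, 0.713 and 0.691 in cortex, 0.733 and 0.737 in olfactory bulb, and 0.740 and 0.721 in cerebellum. Defa bins were therefore above Defb bins in all 5 libraries of cortex and olfactory bulb and below them in both of cerebellum. Over the 7 libraries the mean difference was −0.0014 (two-sided exact sign-flip permutation test, p = 0.88). Against only the Defb bins of the distal cluster, Defa bins were lower in every library, with mean differences of −0.0258 (cortex), −0.0345 (olfactory bulb) and −0.0694 (cerebellum). Over libraries the difference was −0.0408 (exact sign-flip permutation test, p = 0.016, the smallest it can reach). These Defb bins are only those of Defb33, of Defb50, Defb2, Defb10 and Defb9, and of Defb11, Defb15, Defb35 and Defb13. The test does not measure the spread between so few bins. The drop of the Defa mean from cortex to cerebellum (−0.0457, against a rise of 0.0543 over all bins) has an exact permutation p of 0.1, the smallest for 3 libraries against 2.

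Each cluster had a higher mean 5mC than the 500 kb on either side of it. Cluster minus flank was above 0 in 7 of 7 libraries for all 5 clusters (two-sided exact sign-flip permutation test, p = 0.016, the smallest possible, adjusted p = 0.016). A sign-flip test over libraries asks whether a difference between fixed sets of bins recurs in each library. It does not measure the spread between neighbouring bins, and on chromosome 1 the cluster is 1 bin against 10. The mean difference was 0.083 on chromosome 14, 0.067 on chromosome 2, 0.054 for the distal and 0.024 for the proximal cluster of chromosome 8, and 0.023 on chromosome 1. The lowest flank bin on chromosome 14 was that of Gata4, a transcription factor of heart and gut (0.434, averaged over tissue means), and on chromosome 2 that of Bcl2l1, an inhibitor of apoptosis (0.519). The highest flank bin on chromosome 14 was that of Serpine3 (0.713). Beside the distal cluster the lowest bin held no gene and was 50% undetermined bases (0.573), and the highest held Tpte (0.735). Beside the proximal cluster the lowest held 4930467E23Rik (0.640), and the highest no gene (0.762). On chromosome 1 neither the lowest (0.696) nor the highest flank bin (0.80) held a gene.

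The excess over the flanks was smallest in cerebellum for both chromosome 8 clusters. For the distal cluster it was 0.0594, 0.0721 and 0.0767 in cortex, 0.0852 and 0.0541 in olfactory bulb, and 0.0156 and 0.0137 in cerebellum. For the proximal cluster it was 0.0240, 0.0252 and 0.0271 in cortex, 0.0352 and 0.0383 in olfactory bulb, and 0.0095 and 0.0107 in cerebellum. In both, cerebellum lay below all other libraries, with a difference from cortex of −0.0547 and −0.0154 (exact permutation p = 0.1 each, the smallest possible, adjusted p = 0.15). On chromosome 1 cerebellum was highest, with 0.0381 and 0.0446 in cerebellum above 0.0167 to 0.0198 in cortex. Chromosome 2 went the same way, with 0.0883 and 0.0784 in cerebellum, 0.0671 to 0.0702 in cortex, and 0.0270 and 0.0662 in olfactory bulb. The flanks of both chromosome 8 clusters hold gaps of the assembly, with up to 87.8% undetermined bases in a bin beside the distal and 96.9% beside the proximal cluster. With bins of 10% or more undetermined bases left out, the distal excess over all libraries was 0.041 (exact sign-flip permutation test, adjusted p = 0.0625). With medians in place of means over bins, the proximal excess was 0.013 (adjusted p = 0.16) and the distal one 0.042 (adjusted p = 0.053), and against the rest of the chromosome the distal one was 0.035 (adjusted p = 0.080), so neither call held. Against the rest of the chromosome rather than the flanks, the chromosome 2 cluster was lower by 0.0518 and the chromosome 14 cluster by 0.0026.

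**Figure D3:**
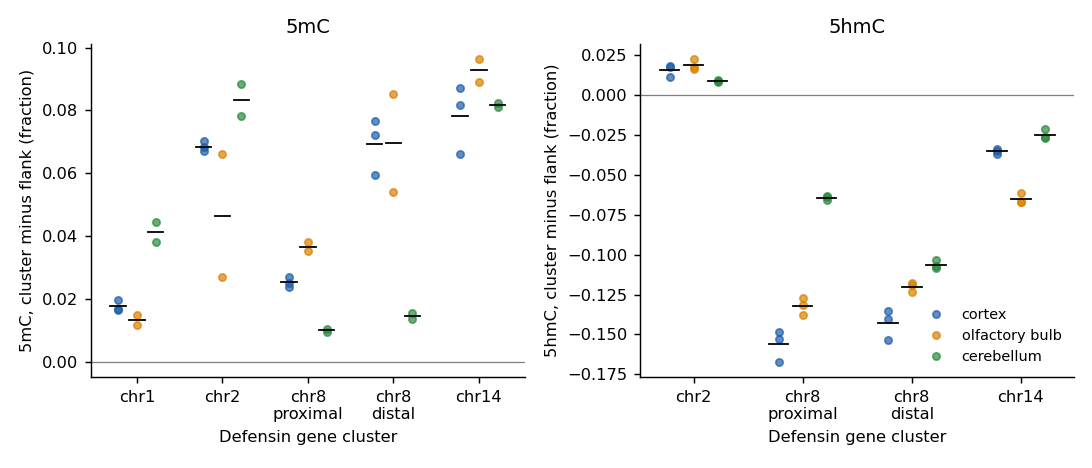
Mean level of each defensin cluster minus that of its flank (fraction), for 5mC in 7 oxBS-seq libraries and for 5hmC in 9 TAB-seq libraries. Points are libraries and bars are tissue means. All 5mC values lie above 0, and for 5hmC only the chromosome 2 cluster does.

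5hmC was scarce in the 1 Mb bins of the chromosome 8 defensin genes and ordinary in those of chromosomes 2 and 14. Averaged over every 1 Mb bin, cortex had a 5hmC level of 0.163 ± 0.009 (SD, n = 3), olfactory bulb 0.145 ± 0.004 and cerebellum 0.095 ± 0.002. The bin with 31 genes of the distal cluster was at 0.0416, 0.0417 and 0.0382 in cortex, 0.0289, 0.0331 and 0.0296 in olfactory bulb, and 0.0200, 0.0227 and 0.0215 in cerebellum. The bin with 12 genes of the proximal cluster was at 0.0540, 0.0521 and 0.0475, at 0.0363, 0.0368 and 0.0358, and at 0.0257, 0.0267 and 0.0279 in the same order. In cortex only 1.53% and 1.95% of autosomal bins were lower than these, and in cerebellum 1.74% and 2.49%. The bin between them, with Defb33 alone, was at 0.0759 in cortex, while the bins beyond the clusters were at 0.174 (2 genes of the proximal cluster) and 0.184 (none). Undetermined bases make up 10% of the proximal bin and 25% of the bin of Defb33. The bin of Defb18 and Defb41 on chromosome 1, with fewer than 3 members, had 0.125 (cortex), 0.0883 (olfactory bulb) and 0.0594 (cerebellum).

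The bin with the 11 genes of chromosome 2 was at 0.169, 0.180 and 0.160 in cortex, 0.146, 0.149 and 0.140 in olfactory bulb, and 0.119, 0.117 and 0.124 in cerebellum. That with 4 genes of chromosome 14, Defb47 to Defb42, was at 0.175, 0.190 and 0.170, at 0.138, 0.146 and 0.139, and at 0.142, 0.135 and 0.140. Both lay in the middle of the genome in cortex (41.1% and 52.3% of autosomal bins lower), and in cerebellum 68.0% and 82.1% of bins were lower. Genes cover 44.0% and 59.4% of these bins, against 8.96% and 10.4% of the distal and proximal bins on chromosome 8. The defensin genes span 164 kb on chromosome 2 and 80.6 kb on chromosome 14, so most of these 2 bins lies outside the clusters. On chromosome 8 the distal cluster spans 1056 kb and the proximal one 523 kb, so the bins of the clusters are not alike in what they hold.

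**Figure D4:**
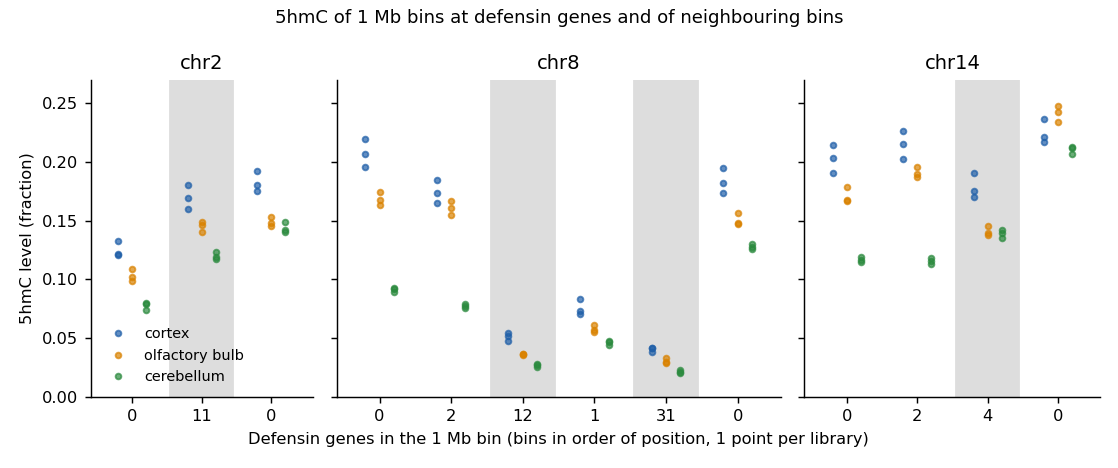
5hmC level (fraction) of 1 Mb bins at defensin genes and of neighbouring bins on chromosomes 2, 8 and 14, in order of position, with the number of defensin genes in the bin under each group of points. Each point is 1 TAB-seq library and grey marks the bins with 3 or more defensin genes. The 2 grey bins of chromosome 8 lie at or below 0.054, in each library under its values for the neighbouring bins.

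Levels of 5hmC fell from cortex to olfactory bulb to cerebellum at most defensin bins. In the limma fit over 2581 bins, 4 of 4 member bins were lower in olfactory bulb than in cortex (background 67.7%, and 3.25% higher) and 4 of 4 were lower in cerebellum than in cortex (97.6%, and 0.426% higher). Between cerebellum and olfactory bulb, 3 of 4 were lower (91.8%, and 1.2% higher), and chromosome 14 was the exception, with a change of −0.03 (adjusted p = 0.72). The distal bin changed by −0.95 ± 0.07 (SE) from cortex to cerebellum on the log2 ratio scale (adjusted p = 6.4e-38), the proximal bin by −0.97 (adjusted p = 1.3e-39), chromosome 2 by −0.59 and chromosome 14 by −0.43. The SE is the same in all bins since limma shared 1 estimate of the spread between them. On the scale of the fraction itself, 1 bin passed between cerebellum and olfactory bulb. As a ratio of means, the cerebellum level was 0.529 of that in cortex at the distal and 0.523 at the proximal bin, 0.706 on chromosome 2 and 0.776 on chromosome 14, against 0.581 over all bins.

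Relative to the genome the order was different. With libraries centred on their medians, 0 member bins were higher and 3 lower in olfactory bulb than in cortex (background 36.2% and 33%), 2 were higher and 0 lower in cerebellum than in cortex (50.3% and 40.1%), and 4 were higher and 0 lower in cerebellum than in olfactory bulb (50.9% and 39.1%). From the flanks the chromosome 8 bins differed by −0.123 (distal) and −0.118 (proximal), chromosome 14 by −0.042 and chromosome 2 by 0.015, each with the same sign in 9 of 9 libraries (two-sided exact sign-flip permutation test, p = 0.0039, the smallest possible, adjusted p = 0.0088). For the proximal cluster and chromosome 14 no bin free of members lies within 500 kb, so bins within 1 Mb were used. Each chromosome 8 bin was thus set against 1 bin on 1 side only. This was the bin of Slc20a2 for the distal cluster (72.2% in genes) and that of Csmd1 for the proximal one (53.6% in genes). Chromosomes 2 and 14 had 2 flank bins each. Against the rest of the chromosome, chromosome 2 differed by 0.000904 (adjusted p = 0.83) and chromosome 14 by 0.018.

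Both marks together were below the genome at all 4 member bins of 1 Mb, and on chromosomes 8 and 14 they were furthest below it in cerebellum. The sum of mean 5mC and mean 5hmC over all bins came to 0.840 ± 0.017 for cortex, 0.852 ± 0.005 for olfactory bulb and 0.826 ± 0.012 for cerebellum, where the SD combines those of both assays. At the distal bin it was 0.776 ± 0.015, 0.786 ± 0.002 and 0.724 ± 0.011. From cortex to cerebellum it changed by −0.052 ± 0.019 there, −0.040 ± 0.019 at the proximal bin, −0.037 ± 0.025 on chromosome 14 and −0.010 ± 0.023 on chromosome 2, against −0.014 ± 0.021 over all bins. At the distal bin 5hmC was 5.22% of the sum for cortex, 3.88% for olfactory bulb and 2.96% for cerebellum, while over all bins it was 19.4%, 17.0% and 11.5%. On chromosome 2 it was 22.9%, 19.7% and 16.4%. The labels do not tie libraries of the 2 assays to the same mice, so the sum has no value per animal and was not tested.

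Receptor genes of the olfactory and vomeronasal epithelia, also tandem families, gave a comparison. The mean 5mC of defensin bins was below that of bins of olfactory receptor genes (Olfr) in 7 of 7 libraries, by 0.0221 on average. It was below that of bins of vomeronasal receptor genes (Vmn1r and Vmn2r) in 7 of 7, by 0.0147 (two-sided exact sign-flip permutation test, adjusted p = 0.021 for each). Clusters were unlike in this. In cortex chromosome 1 (0.734) and the proximal (0.731) and distal (0.736) clusters were close to Vmn (0.735), and chromosomes 2 (0.624) and 14 (0.684) lower. In cerebellum only chromosome 2 (0.664) and the distal cluster (0.706) lay below Vmn. With only bins of 2 or more genes of the family, the gap to Vmn was −0.0097 and its adjusted p was 0.0625. The gap to Olfr was widest in cerebellum (−0.0336 and −0.0368, against −0.0139 to −0.0192 elsewhere) and that to Vmn narrowest there (−0.0019 and −0.0069, against −0.0147 to −0.0220). The mean of the Vmn bins was itself lower in cerebellum (0.719 ± 0.009 (SD, n = 2)) than in cortex (0.735 ± 0.014 (n = 3)), with overlapping libraries, while that of the Olfr bins was 0.750 ± 0.011 against 0.730 ± 0.015. In 5hmC the mean of the 4 defensin bins lay above that of Vmn bins in 9 of 9 libraries, by 0.0376 (exact sign-flip permutation test, adjusted p = 0.016). Its difference from the mean of Olfr bins was −0.0062 (same test, adjusted p = 0.11). It lay below that mean in the 6 libraries of cortex and olfactory bulb and above it in the 3 of cerebellum. Single bins were unlike in this too. In cortex the bins of the distal (0.0405) and proximal (0.0512) clusters lay below the Vmn mean (0.0688). The other defensin bins (0.170 and 0.179) lay above it. In olfactory bulb and cerebellum each bin lay on the same side of the Vmn mean as in cortex.

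On levels as deposited, no bin of other antimicrobial defence genes passed the test as lower in cerebellum, while after centring 4 did. A list of 25 such genes, of which 24 were found, fell in 22 bins of 100 kb, all tested. From cortex to cerebellum 16 of these were higher and 0 lower, with a median change of 0.33, beside 71.9% and 0.43 of all bins. After centring 3 were higher and 4 lower, with a median change of −0.08 (background 25.7% and 24.3%). The largest change was in the bin of Wfdc12, a protease inhibitor of mucosal secretions (0.74, adjusted p = 3.3e-09), which was at 0.585 ± 0.029 (SD, n = 3) in cortex and 0.702 ± 0.018 (n = 2) in cerebellum. The bin of Mmp7, whose product activates the cryptdins, changed by 0.32 (adjusted p = 0.0097). From cortex to olfactory bulb 7 were higher and 0 lower, again with Wfdc12 first (0.53, adjusted p = 0.00014), and from olfactory bulb to cerebellum 4 were higher and 0 lower, with a bin of Tlr4, the receptor of bacterial lipopolysaccharide, first (0.77, adjusted p = 6.6e-08). The olfactory bulb count was 4 without cortex replicate 1, 3 without cortex replicate 3 or olfactory bulb replicate 2 and 0 without olfactory bulb replicate 1. Without cerebellum replicate 1 the count of 16 was 9, and without olfactory bulb replicate 2 the count of 4 was 2.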

How the data were processed

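OxBS-seq (7 libraries) and TAB-seq (9) of 22 samples were used, and the 6 RNA-seq samples were not analysed here. The authors mapped reads uniquely to mm10 with Bismark and deposited, per bin, the fraction of cytosine reads that were unconverted. The version, the read coverage of a single bin, the spike-in conversion rates and how sites were combined in a bin are not given in the sources used here. The methods describe bins of 1 Mb, whereas the 5mC values came in bins of 100 kb.

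Replicate numbers are those of the labels, which differ from those in the deposited library names for olfactory bulb and cerebellum oxBS-seq. A bin was dropped from an assay when 1 or more of its libraries listed it at 0 or 1 (663 bins for 5mC, 60 for 5hmC). Changes were fitted over all remaining bins on log2(level/(1 − level)) with limma 3.58.1 (R 4.3.3) and Benjamini-Hochberg adjustment, with a threshold of 0.05. The fit was tested on simulated data. Cluster means and differences from flanks were compared with two-sided exact permutation tests that went through every arrangement (numpy 2.4.6, Python 3.11.15). Recurring sequence was found by exact matches of 96-base stretches, taken every 10 bases, on the same chromosome and either strand.

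The members and lists, among them 25 other defence genes, were chosen with earlier results of these data known. Named are the first and last gene of each cluster, those of its highest and lowest 5mC bin, those of the 3 largest called changes per pair of tissues, the genes of the extreme flank bins, and the defence genes with the largest called change. Other members were named after their values were seen. Promoters are shown in place of the proteins planned. The alternatives tried were another scale, centring, other bins, flanks and limma options, a replicate block and leaving out each library. Deviations from the tissue means correlated between same-numbered olfactory bulb and cortex TAB-seq libraries in all 3 pairs (r = 0.126, 0.344 and 0.250). Only same-numbered libraries were compared and the 3 values are not independent, so they cannot show whether the numbers mark pairs. The labels name no shared animal or batch. For the other 5hmC pairs r was −0.229 to 0.0743 and for 5mC −0.0906 to 0.0158, and those numbers were not taken as pairs. The highest flank bin of 1 cluster is not reported here.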

Additional observations from a re-analysis of the deposited data

Results flagged for a closer look

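The difference between the Defa bins and the Defb bins in 5mC was picked out because every library of cerebellum lay on one side of 0 and every library of cortex and olfactory bulb on the other. The mean of Defa minus Defb was −0.0483 in cerebellum, 0.0215 in cortex and 0.0112 in olfactory bulb. Tested directly, the difference from cortex was −0.0698 (exact two-sided permutation p = 0.1, which is the lowest the design allows, adjusted p = 0.2) and that from olfactory bulb −0.0595 (exact permutation p = 0.33, again the lowest allowed). Picking a result for its full separation fixes these p-values at their lowest, so they add no support. Against only the few Defb bins of the distal cluster, Defa bins were lower in all 3 tissues (−0.0258 in cortex, −0.0345 in olfactory bulb, −0.0694 in cerebellum).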

How the results depend on the processing

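The coverage of single bins is unknown and 2 or 3 libraries a tissue limit every test. Counts below are of member bins called, and the cause of the changes was not tested, except that centring removes each library's median and bins of 1 Mb leave 4 members.

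Centring on library medians gave, for 5mC, 0 higher and 1 lower in olfactory bulb against cortex, 1 and 16 in cerebellum against cortex, and 1 and 15 in cerebellum against olfactory bulb, and for 5hmC 2 and 0 and then 4 and 0 in the last 2 pairs. It turned the 5mC difference between olfactory bulb and cortex to −0.0213 on chromosome 2, −0.0021 for the proximal and −0.0111 for the distal cluster. It turned that between cerebellum and cortex to −0.0163 on chromosome 2, −0.0513 for the proximal cluster and −0.0017 on chromosome 14, and that between cerebellum and olfactory bulb to −0.0181 on chromosome 14. For 5hmC the proximal cluster turned to 0.0079, 0.0571 and 0.0492 and the distal one to 0.0129, 0.0625 and 0.0496 in the same 3 pairs. Chromosome 2 turned to 0.0316 and 0.0334 and chromosome 14 to 0.0415 and 0.0564 in the last 2. The mean 5hmC median taken off was 0.175 (cortex), 0.152 (olfactory bulb) and 0.093 (cerebellum). In the last 2 pairs its drop exceeded the whole starting level of the proximal (0.0512 and 0.0363) and distal (0.0405 and 0.0305) bins. Even complete loss of 5hmC would appear there as a rise, so for these bins those signs cannot show a gain.

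The replicate block gave 5 higher in olfactory bulb against cortex, 5 higher and 6 lower in cerebellum against cortex and 3 and 12 against olfactory bulb for 5mC, and changed no 5hmC count, those of olfactory bulb against cortex included, where same-numbered libraries deviated together. With 5mC averaged to 1 Mb the counts were 2 higher, 1 higher and 1 lower, and 0 higher and 3 lower. With every 1 Mb bin that holds a member, 7, 8 and 7 were lower in 5hmC, and on the fraction scale 1 was lower between cerebellum and olfactory bulb. The defence genes then had 4 bins higher in olfactory bulb. Centred, they had 1 higher and 1 lower in olfactory bulb against cortex, 3 and 4 in cerebellum against cortex and 3 and 3 in cerebellum against olfactory bulb.

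Cluster minus flank within libraries was 0.0133 (proximal, adjusted p = 0.16) and 0.0421 (distal, adjusted p = 0.053) with medians by exact permutation, and 0.0413 for the distal cluster without bins of 10% or more undetermined bases. Against the rest of the chromosome 5mC gave −0.0518 (chromosome 2), 0.0354 (distal) and −0.0026 (chromosome 14), and 5hmC 0.000904 (chromosome 2) and 0.0181 (chromosome 14). Between tissues, medians gave −0.0069 (distal, olfactory bulb against cortex) and −0.0020 (chromosome 14, cerebellum against cortex). A 1 Mb flank gave 0.0028 (chromosome 1) and −0.000943 (distal) in olfactory bulb against cortex and 0.0213 (chromosome 14) in cerebellum against olfactory bulb. On the log2 ratio scale 5hmC gave 0.0034 (chromosome 2, cerebellum against cortex), −0.150 (proximal, olfactory bulb against cortex) and −0.0823, −0.331 and −0.249 (distal, the 3 pairs). Defa minus Defb was 0.0020 with the shared bin counted as Defa and −0.0408 against the Defb bins of the same cluster, and defensin minus Vmn was −0.0097 with bins of 2 or more genes and −0.0099 with medians.

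Leaving out 1 library, the counts ran from 1 to 8 (higher in olfactory bulb against cortex), 2 to 6 higher and 3 to 6 lower (cerebellum against cortex), and 0 to 3 higher and 4 to 11 lower (cerebellum against olfactory bulb), and the defence counts from 0 to 6, 9 to 15 and 2 to 4. The mean level ran from −0.0058 to 0.0160 (proximal 5mC, cerebellum against cortex), −0.0048 to 0.0174 (chromosome 14 5mC, cerebellum against olfactory bulb) and −0.0038 to 6.7e-05 (the same in 5hmC). Cluster minus flank ran from −0.0152 to 0.0158 (distal, olfactory bulb against cortex) and −0.0027 to 0.0077 (chromosome 14, cerebellum against cortex), and Defa minus Defb from −0.0054 to 0.0070.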
